A study of Mus musculus with 4 samples.

Results

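The genes described here are 33 genes of insulin and mTOR signalling, taken from a named list that runs from the receptors of insulin and of insulin-like growth factor 1 to the mTOR complexes, out of 21951 protein-coding genes of the mouse. They were examined for histone 3 phosphorylated at serine 10 (H3S10ph) by ChIP-seq in whole gastrocnemius muscle, the large calf muscle. Muscles came from male C57BL/6 mice aged 5 months that were anaesthetised with xylazine and Zoletil. The stimulated muscles performed 50 eccentric contractions, in which the muscle is lengthened while it is active, each driven by electrical stimulation at 100 Hz for 600 ms, with a rest of 30 s, and they were frozen straight after the last one. The unstimulated muscles were the contralateral ones. Each condition had 2 samples, and each sample was a pool of muscles from 6 mice, so that mouse-to-mouse variation within a pool is not seen. A gene was scored by the peaks of each sample that overlapped its gene body, the stretch from its annotated start to its annotated end on mm10, by at least 1 bp. Values for the 4 peak lists are given below in the order unstimulated replicate 1, unstimulated replicate 2, stimulated replicate 1 and stimulated replicate 2.

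Insulin and insulin-like growth factor 1 bind receptor tyrosine kinases, which phosphorylate the adaptor proteins Irs1 and Irs2. The adaptors recruit PI3 kinase, whose lipid product activates Pdpk1 and Akt. In muscle, Akt phosphorylates the Rab GTPase activators Tbc1d1 and Tbc1d4 and so lets the glucose transporter Slc2a4 (GLUT4) move to the surface, it inhibits the glycogen synthase kinase Gsk3 and the Foxo transcription factors, and it relieves the block of mTOR by the Tsc1 and Tsc2 proteins. mTOR in complex with Rptor drives protein synthesis through Rps6kb1 and Eif4ebp1, and is known for its part in muscle growth after contraction. H3S10ph is a histone mark that kinases of the MSK family place at genes induced by stress and growth signals, and that Aurora B places on whole chromosomes in mitosis.

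The sequences on which the comparison between replicates turns are printed first, in mm10 and on the strand of the gene. The stretch of *Pik3ca* (chr3:32449907-32450173, plus strand, 267 bases) is the stimulated replicate 1 peak that met a stimulated replicate 2 peak, the only such pair on these genes, and it holds a coding exon and the start of the next intron. The stretch of *Gsk3b* (chr16:38172357-38172594, plus strand, 238 bases, intron) is the unstimulated replicate 1 peak that met an unstimulated replicate 2 peak. The stretch of *Sos1* (chr17:80424867-80425088, minus strand, 222 bases, intron) is the peak with the highest −log10 p on any of these genes. That of *Akt2* (chr7:27636323-27636592, plus strand, 270 bases) is the best *Akt2* peak of stimulated replicate 1 and covers the end of a coding exon. The last one (chr5:64230107-64230406, plus strand, 300 bases) is the RefSeq promoter of an internal start of *Tbc1d1*, which lay wholly under a stimulated replicate 1 peak. Capitals mark letters of the AP-1 motif TGANTCA on either strand, and a sequence without capitals held no match to AP-1, CRE (TGACGTCA), FOXO (GTAAACA) or the CArG box, none of which contains another.
Pik3ca: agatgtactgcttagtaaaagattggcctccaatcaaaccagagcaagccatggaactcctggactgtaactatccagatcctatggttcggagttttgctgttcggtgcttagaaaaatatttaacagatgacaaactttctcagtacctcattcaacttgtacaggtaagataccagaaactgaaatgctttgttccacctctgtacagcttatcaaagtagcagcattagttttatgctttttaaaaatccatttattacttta
Gsk3b: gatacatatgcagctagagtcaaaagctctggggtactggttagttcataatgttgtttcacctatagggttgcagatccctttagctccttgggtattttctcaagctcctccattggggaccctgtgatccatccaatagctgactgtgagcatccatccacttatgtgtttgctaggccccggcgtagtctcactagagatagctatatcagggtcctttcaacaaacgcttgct
Sos1: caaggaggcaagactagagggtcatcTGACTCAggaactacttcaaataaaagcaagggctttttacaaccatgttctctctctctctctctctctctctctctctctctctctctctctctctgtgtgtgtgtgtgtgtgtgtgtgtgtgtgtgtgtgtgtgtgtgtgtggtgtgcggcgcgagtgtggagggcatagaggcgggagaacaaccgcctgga
Akt2: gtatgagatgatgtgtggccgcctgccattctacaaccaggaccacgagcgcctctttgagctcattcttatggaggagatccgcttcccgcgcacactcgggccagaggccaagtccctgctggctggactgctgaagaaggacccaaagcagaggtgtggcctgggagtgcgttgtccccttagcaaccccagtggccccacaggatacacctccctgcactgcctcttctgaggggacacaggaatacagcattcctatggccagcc
Tbc1d1: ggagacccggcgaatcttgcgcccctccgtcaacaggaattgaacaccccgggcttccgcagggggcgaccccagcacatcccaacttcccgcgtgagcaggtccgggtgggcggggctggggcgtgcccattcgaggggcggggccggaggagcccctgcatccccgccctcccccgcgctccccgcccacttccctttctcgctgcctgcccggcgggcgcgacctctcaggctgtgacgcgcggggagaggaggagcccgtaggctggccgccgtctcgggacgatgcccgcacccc

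The *Sos1* and *Gsk3b* stretches were chosen after their values were seen. All 238 bases of the *Gsk3b* stretch are repeat-masked in the reference. The *Sos1* stretch holds a run of 24 copies of ct and a run of 23 copies of gt, and 50.9% of it is repeat-masked. Of 22233 gene-body peaks of stimulated replicate 2 at least 222 bp wide, 1.25% had a run of 20 or more such copies in their central 222 bases and 6.49% had the AP-1 letters there. The part that these repeats have in the peak calls was not tested. The *Akt2* stretch was 59.3% G and C and the *Tbc1d1* promoter 74%. Of 32851 RefSeq promoters, the same length as the *Tbc1d1* one, 7.81% held the AP-1 letters, 1.79% the CRE, 3.65% the FOXO motif and 1.63% the CArG box.

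The 4 lists differed in length, with 9094, 32740, 10901 and 40683 peaks, and long lists hit more genes of any kind. The lists give no reads, so the depth of each sample is unknown, and a gene without a peak is a gene without a call at the threshold of its list. Unstimulated replicate 1 stood apart in having 522 peaks on chromosome X against 19, 19 and 16 in the others, but none of the 33 genes is on that chromosome. Muscle fibre genes are the main check of the tissue that a histone mark allows. Of 20 such genes, 5, 11, 12 and 15 had a peak, and their peaks were 3.85, 4.17, 8.94 and 4.15 times as many as on genes of similar length. Of 20 markers of other cells of muscle, 1, 6, 4 and 10 had a peak, with 1, 6, 4 and 19 peaks in all, or 0.227, 0.437, 0.814 and 0.772 times as many as on genes of similar length. Of these markers 6 had no peak in any list. The others had a peak in at least 1 list, and the endothelial gene *Tek* had one in each stimulated list. In whole muscle, a weak mark in many cells and a strong mark in few cells cannot be told apart.

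Most of the 33 genes carried a peak in at least 1 list, and each stimulated list hit more of them than the unstimulated list with the same number. A peak was found on 11, 20, 15 and 27 of the 33 genes, which is 33.3%, 60.6%, 45.5% and 81.8%. The mean was 15.5 ± 6.36 genes in unstimulated and 21 ± 8.49 genes in stimulated muscles (SD, n = 2 lists each), and the conditions overlapped, since unstimulated replicate 2 hit more genes than stimulated replicate 1 (exact permutation test over samples, two-sided, p = 0.667). With 2 samples against 2 the smallest p possible is 0.333, so no comparison between conditions can pass 0.05 here. Without stimulated replicate 2 the difference of 5.5 genes turned to −0.5. The labels call the samples of a condition independent biological replicates.

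These genes are long, and long genes held more peaks. The median gene body of the 33 was 77245 bp (range 5650 to 296672 bp), against 17403 bp over all protein-coding genes. Over all protein-coding genes 11.9%, 31.2%, 16% and 42.3% had a peak, whereas over the 200 protein-coding genes closest in length to each of the 33 it was 23.9%, 57%, 30.3% and 67.6%. From genes of similar length 7.88, 18.8, 10.0 and 22.3 of the 33 were expected to have a peak, so that the observed numbers were 1.40, 1.06, 1.498 and 1.21 times the expected ones. The ratio was highest in stimulated replicate 1 and lowest in unstimulated replicate 2, with unstimulated replicate 1 above stimulated replicate 2 (difference of the means 0.12, exact permutation p = 0.667). This difference also changed sign when either unstimulated replicate 2 (−0.0417) or stimulated replicate 1 (−0.0190) was left out.

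Relative to genes of similar length, the number of peaks on the 33 genes put both stimulated lists above both unstimulated ones, whereas the number of genes hit did not. The ratio of peaks was added after the counts had been seen, and 2 lists against 2 cannot show a difference between conditions. The genes held 15, 40, 22 and 100 peaks (27.5 ± 17.7 unstimulated and 61 ± 55.2 stimulated, SD, n = 2, exact permutation p = 0.667), where genes of similar length gave 11.6, 40.9, 14.3 and 65.3. Observed over expected was 1.29, 0.979, 1.54 and 1.53. Both stimulated lists were above both unstimulated ones, with a difference of the mean ratios of 0.40 and the smallest possible exact permutation p of 0.333. Counting error alone gave 95% Poisson intervals of the ratio of 0.722 to 2.13, 0.699 to 1.33, 0.963 to 2.33 and 1.25 to 1.86. Only the interval of stimulated replicate 2 lay above 1. These intervals treat peaks as independent and leave out the spread between genes of a length, so they are no test of an excess. Of the 100 peaks in that list, *Rptor*, *Igf1r*, *Gsk3b* and *Tbc1d1* held 11, 9, 9 and 8. Without stimulated replicate 2 the raw difference in peaks turned from 33.5 to −5.5, while the difference of the ratios stayed at 0.40, and it ranged from 0.24 without unstimulated replicate 2 to 0.56 without unstimulated replicate 1.

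Peaks covered 6701, 26296, 11519 and 60860 bp of the 2812780 bp in these gene bodies. These are 0.238%, 0.935%, 0.410% and 2.16%, against 0.202%, 0.739%, 0.257% and 1.29% over all protein-coding genes. Relative to genes of similar length the covered share was 1.14, 1.24, 1.57 and 1.58 times as large, again with both stimulated lists above both unstimulated lists (exact permutation p = 0.333, the smallest possible). The covered share itself was 0.587% ± 0.493 in unstimulated and 1.29% ± 1.24 in stimulated muscles (SD, n = 2, exact permutation p = 0.667), and without stimulated replicate 2 its difference of 0.70 percentage points turned to −0.18. Ratios of peak number and of covered share were added after the counts had been seen.

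**Figure D1:**
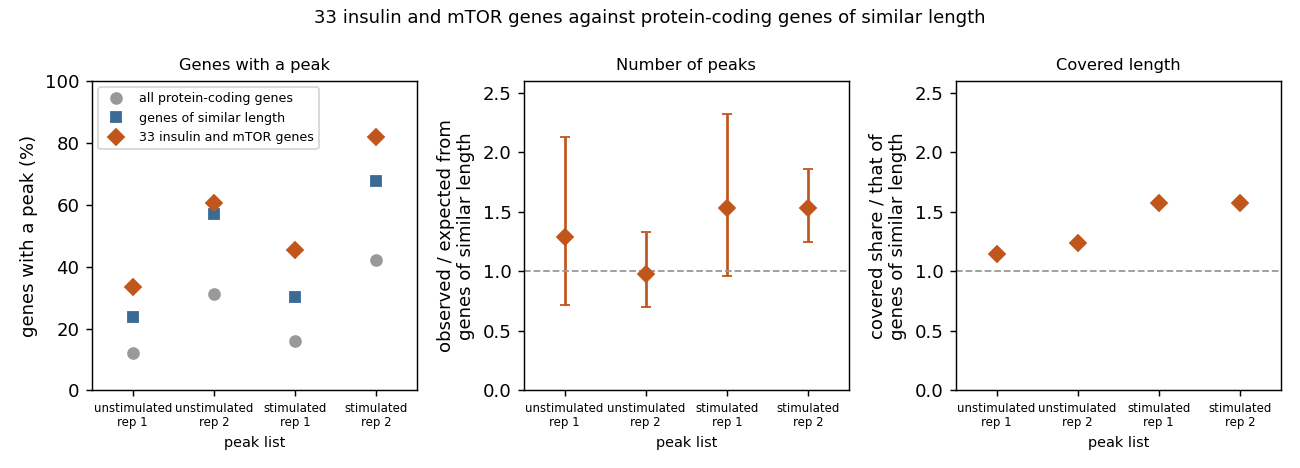
Share of genes with an H3S10ph peak (left, percent), number of peaks on the 33 genes divided by the number expected from protein-coding genes of similar length (middle, with 95% Poisson intervals for counting error) and the share of gene body covered by peaks divided by that of genes of similar length (right), each for the 4 peak lists. The 2 stimulated lists lie at 1.54 and 1.53 in the middle plot and at 1.57 and 1.58 in the right one, above both unstimulated lists in each.

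Within the 33 genes, longer genes held more peaks. Spearman's rho between gene length and number of peaks was 0.504, 0.607, 0.320 and 0.638 over the 33 genes, which share 1 library for each value. Comparing the same gene between the lists numbered 2, 25 genes had more peaks in stimulated muscle, 5 had as many and 3 had fewer. The stimulated list is the longer one, and 45.7% of genes of similar length (15.1 of 33) and 30.9% of all protein-coding genes also had more, while 21% and 14.3% had fewer. Between the lists numbered 1, 11 genes had more, 16 as many and 6 fewer. Here 22.8% of genes of similar length (7.51 of 33) and 12.4% of all genes had more, and 16% and 8.34% had fewer. *Rptor*, *Gsk3b*, *Igf1r* and *Tbc1d1*, which are among the longest genes of the list, held the most peaks of stimulated replicate 2. In unstimulated replicate 2 *Gsk3b* held 8 peaks, where genes of its length averaged 2.14. The spread among genes of that length was not examined.

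**Figure D2:**
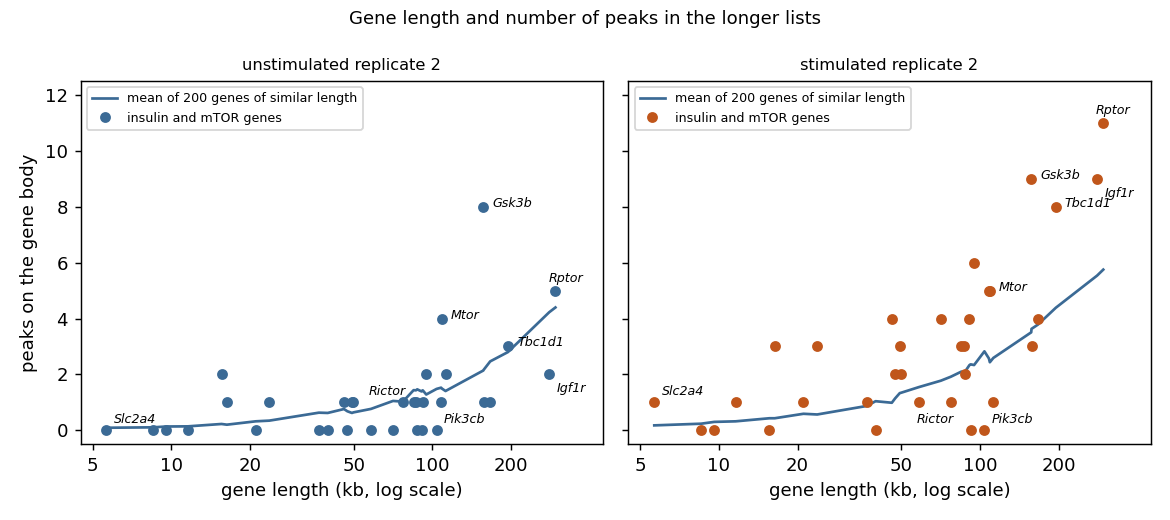
Number of peaks on the gene body against gene length (kb, log scale) for the 33 genes in unstimulated replicate 2 (left) and stimulated replicate 2 (right), 1 point per gene, with the mean number on the 200 protein-coding genes closest in length as a line. *Gsk3b* lies far above the line in both lists (8 and 9 peaks), and *Igf1r* is below the line on the left (2 peaks) and above it on the right (9 peaks).

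In either condition, more of the 33 genes were hit in both replicates than length alone gave. A peak in both stimulated lists was found on 14 of the 33 genes, namely *Insr*, *Igf1r*, *Irs1*, *Pik3ca*, *Pdpk1*, *Akt2*, *Gsk3b*, *Foxo1*, *Tbc1d4*, *Tbc1d1*, *Rptor*, *Tsc1*, *Tsc2* and *Cbl*. Genes of similar length gave 8.63 (26.2%), and 12.3% of all protein-coding genes had one in both. In both unstimulated lists 9 genes had a peak, where 5.97 (18.1%) would be expected from length and 7.94% of all genes had one. These were *Insr*, *Igf1r*, *Pdpk1*, *Gsk3b*, *Tbc1d4*, *Rptor*, *Rictor*, *Rps6kb1* and *Sos1*. The 6 genes *Insr*, *Igf1r*, *Pdpk1*, *Gsk3b*, *Tbc1d4* and *Rptor* were in all 4 lists (8.68% of genes of similar length and 4.08% of all genes). The 3 genes *Irs1*, *Tsc2* and *Cbl* were hit in each stimulated sample but in no unstimulated one, against 1.295 expected from length (3.92% of genes of similar length and 2.73% of all genes). The reverse held for *Rictor* alone, against 0.425 expected (1.29% and 0.688%). *Pik3r2* and *Gsk3a*, both under 10 kb long, had no peak in any list, as had 18.7% of genes of similar length and 44.2% of all genes.

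**Figure D3:**
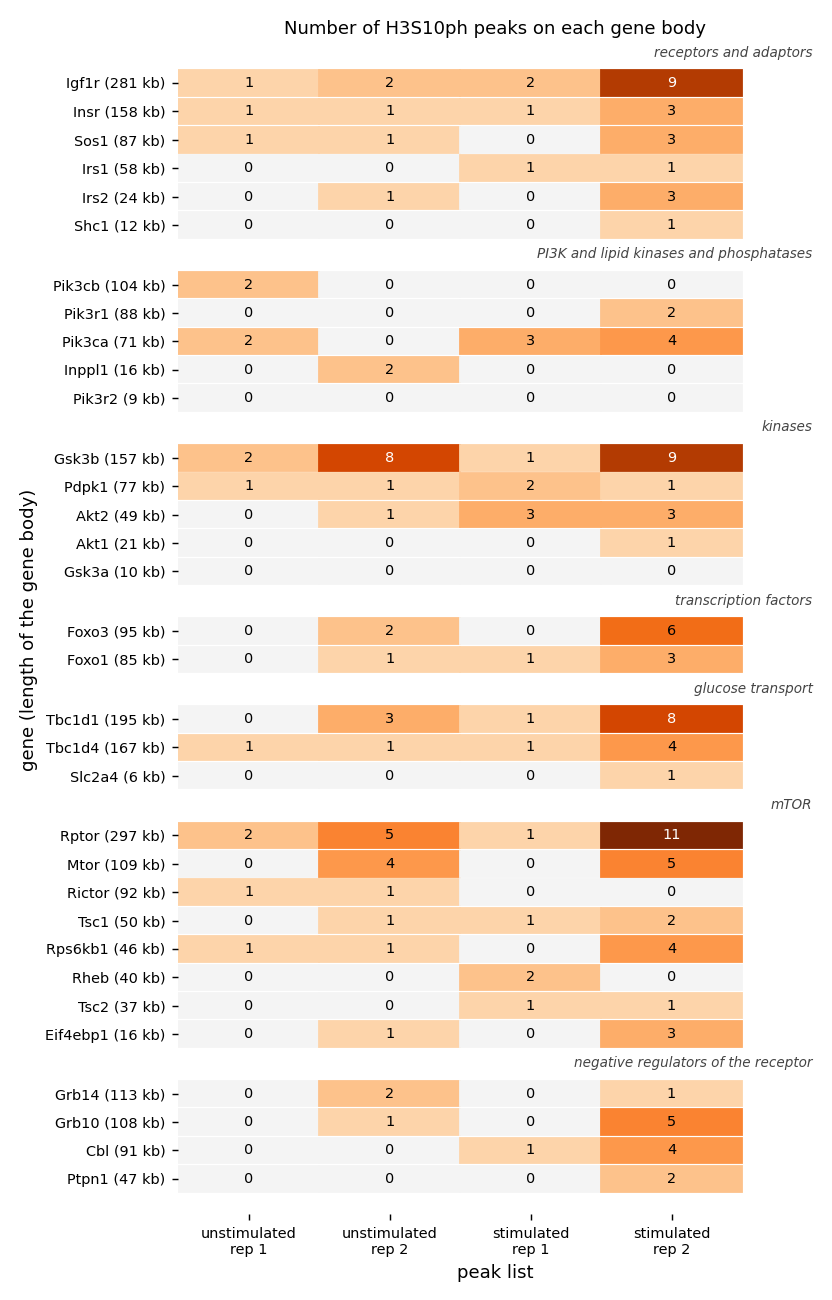
Number of H3S10ph peaks on each of the 33 gene bodies (rows, grouped by role and ordered by length in kb) in each of the 4 peak lists (columns), with darker cells for more peaks. The stimulated replicate 2 column is the fullest, with 27 of the 33 genes above 0, and *Gsk3b* is also dark in unstimulated replicate 2.

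Among the receptors and adaptors, 3, 4, 3 and 6 of 6 genes had a peak. These were 1.94, 1.149, 1.496 and 1.46 times the number expected from length, with the highest ratio in unstimulated replicate 1. *Insr* (chr8:3122061-3279617, minus strand), the insulin receptor, had 1, 1, 1 and 3 peaks, where 200 genes of its length averaged 0.63, 2.165, 0.85 and 3.63. All of its peaks were intronic except 1 of stimulated replicate 2 that touched an exon, and the peak of unstimulated replicate 1 (chr8:3252017-3252915) and that of stimulated replicate 1 (chr8:3251222-3251965) lay next to each other without overlap. *Igf1r* (chr7:67952827-68233668, plus strand), the receptor of insulin-like growth factor 1, had 1, 2, 2 and 9 peaks against length averages of 1.09, 4.225, 1.38 and 5.535. Its peaks covered 0.0823%, 0.277%, 0.688% and 1.87% of the gene. This share was larger in either stimulated list than in either unstimulated one, an order that was not counted over other genes. *Irs1* (chr1:82233101-82291416, minus strand), the adaptor that muscle insulin receptors act through, had 0, 0, 1 and 1. Its stimulated peaks, chr1:82234953-82235496 in an exon and chr1:82238760-82239526 in an intron, were 3263 bp apart near the 3′ end, and the first also overlapped the protein-coding gene *Gm9747*, with which it cannot be told apart.

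*Irs2*, the second adaptor, had 0, 1, 0 and 3 peaks. Its stimulated replicate 2 peak chr8:11006066-11007581 lay within 1000 bp of the 5′ end and had a fold enrichment over background of 2.54 and a −log10 p of 3.31. Stimulated replicate 1 had no *Irs2* peak. *Shc1*, an adaptor towards Ras, had 0, 0, 0 and 1, and the single peak covered 12.8% of this short gene. *Sos1* (chr17:80393751-80480453, minus strand), the exchange factor that loads Ras with GTP, had 1, 1, 0 and 3 peaks. The stretch printed above had a fold enrichment of 2.93 and a −log10 p of 4.29 in stimulated replicate 2, rank 66 of its list, but its −log10 q was 0.257. In unstimulated replicate 1 a different *Sos1* peak (chr17:80467644-80467947, −log10 p 3.31, 63.5% repeat-masked) was also the best on the 33 genes.

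PI3 kinase genes were hit unevenly, with 2, 1, 1 and 2 of 5 genes. Relative to the number expected from genes of similar length this was 2.14, 0.408, 0.877 and 0.677. *Pik3ca* (chr3:32397671-32468486, plus strand), the catalytic subunit p110 alpha, had 2, 0, 3 and 4 peaks against length averages of 0.35, 1.05, 0.365 and 1.775. Its stimulated counts lay above its unstimulated ones, an order that was not counted over other genes. Stimulated replicate 1 had peaks in its first intron at chr3:32399891-32400155 (−log10 p 3.32) and chr3:32402716-32402981 (−log10 p 3.13). Stimulated replicate 2 had none there and instead had 4 peaks further down the gene. The last of them, chr3:32448843-32449947, met the *Pik3ca* stretch printed above by 41 bp at the 5′ edge of a coding exon, with −log10 p of 2.44 in replicate 1 and 2.19 in replicate 2. *Pik3cb*, which encodes the p110 beta subunit, had 2, 0, 0 and 0 peaks, although stimulated replicate 2 put 2.825 peaks on the average gene of its length. *Pik3r1*, the regulatory subunit p85 alpha, had 0, 0, 0 and 2, and 1 of these (chr13:101765321-101767688) was 2368 bp wide and within 1000 bp of the 5′ end. *Inppl1*, the lipid phosphatase SHIP2, had 0, 2, 0 and 0, and was the only gene of the 5 hit in unstimulated replicate 2.

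Of the 5 kinase genes, 2, 3, 3 and 4 had a peak, or 2.03, 1.29, 2.26 and 1.30 times the number expected from length. *Pdpk1* (chr17:24073680-24150924, minus strand), which phosphorylates Akt in its activation loop, had 1, 1, 2 and 1 peaks. The nearest stimulated pair lay 24534 bp apart, and the nearest unstimulated pair 21796 bp. *Akt2* (chr7:27591552-27640826, plus strand), the Akt form most tied to glucose uptake, had 0, 1, 3 and 3 peaks against length averages of 0.185, 0.62, 0.275 and 1.33. Its stimulated counts were both above its unstimulated ones, an order that was not counted over other genes. Its best stimulated peak is the stretch printed above (−log10 p 3.21, fold enrichment 2.52), and the nearest peak of stimulated replicate 2 (chr7:27633384-27633606) was 2716 bp away. *Akt1* had 0, 0, 0 and 1.

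*Gsk3b* (chr16:38089001-38246084, plus strand), the kinase that holds glycogen synthase inactive, had 2, 8, 1 and 9 peaks against length averages of 0.65, 2.14, 0.83 and 3.505. It was above the averages in all 4 lists, and its conditions overlapped. Its unstimulated replicate 2 peak chr16:38172356-38173722 covered the whole of the unstimulated replicate 1 stretch printed above. It also had 2 of the 3 overlaps between unstimulated replicate 2 and stimulated replicate 2 on these genes, at chr16:38120516-38120539 (24 bp) and chr16:38199887-38200137 (251 bp). The third was on *Grb14*. The stimulated replicate 2 peak chr16:38192673-38193281 of *Gsk3b* reached a −log10 p of 3.24.

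The Foxo genes encode transcription factors of atrophy genes that Akt keeps out of the nucleus. *Foxo1* (chr3:52268336-52353221, plus strand) had 0, 1, 1 and 3 peaks. The stimulated peaks chr3:52290311-52290547 and chr3:52291870-52292289 lay 1322 bp apart in its intron. *Foxo3* had 0, 2, 0 and 6 peaks, against an average of 2.335 on genes of its length in stimulated replicate 2, and 1 of the 6 (chr10:42276020-42276243) was within 1000 bp of the 5′ end.

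Genes of glucose transport had a peak in 1, 2, 2 and 3 of 3, or 1.08, 1.06, 1.69 and 1.53 times the number expected from length. *Tbc1d4* (chr14:101442360-101609191, minus strand), also called AS160, had 1, 1, 1 and 4 peaks, close to the averages of 0.685, 2.465, 0.85 and 3.785 for its length. *Tbc1d1* (chr5:64156305-64351486, plus strand), its relative that also responds to contraction through AMPK, had 0, 3, 1 and 8 peaks against 0.775, 2.80, 1.035 and 4.385. Both stimulated lists had a *Tbc1d1* peak within 1000 bp of an annotated start. In replicate 1 it was chr5:64229869-64230792, at the internal start whose promoter is printed above, and in replicate 2 it was chr5:64160359-64160720, near a start in the 5′ part of the gene. *Slc2a4*, the insulin-responsive glucose transporter and the shortest of the 33 genes at 5650 bp, had 0, 0, 0 and 1. That peak, chr11:69947625-69948793, spanned its 5′ end, covered 9.98% of the gene and had a −log10 p of 2.41, and genes of similar length averaged 0.175 peaks in that list.

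The 8 genes around mTOR had a peak in 3, 6, 4 and 6, or 1.71, 1.32, 1.76 and 1.11 times the number expected from length. *Rptor* (chr11:119602905-119899576, plus strand), the subunit that defines mTOR complex 1 and the longest of the 33 genes, had 2, 5, 1 and 11 peaks against length averages of 1.07, 4.395, 1.45 and 5.75, all of them in introns. Its single stimulated replicate 1 peak (chr11:119685605-119685841) was 519 bp from a stimulated replicate 2 peak (chr11:119684345-119685085). *Rictor* (chr15:6708379-6800401, plus strand), which defines mTOR complex 2, had 1, 1, 0 and 0 peaks. Its unstimulated peaks chr15:6732942-6733769 and chr15:6728334-6730143 were 2798 bp apart, and the stimulated replicate 2 list put 2.36 peaks on the average gene of its length. *Mtor*, the kinase of both complexes, had 0, 4, 0 and 5 peaks, and its exonic peak chr4:148464837-148465061 was the best of unstimulated replicate 2 on these genes (−log10 p 3.05).

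*Tsc1* (chr2:28641228-28691167, plus strand) and *Tsc2* (chr17:24595816-24632630, minus strand) encode the complex that switches Rheb off. *Tsc1* had 0, 1, 1 and 2 peaks. Its stimulated peaks chr2:28649704-28649955 (−log10 p 2.997) and chr2:28650508-28650782 (−log10 p 2.47) were 552 bp apart in an intron, and its unstimulated peak was more distant. *Tsc2* had 0, 0, 1 and 1, with its stimulated peaks chr17:24614306-24615142 and chr17:24602921-24603138 lying 11167 bp apart. *Rheb*, the small GTPase that activates mTOR complex 1, had 0, 0, 2 and 0, and 1 of these (chr5:24841920-24842274) was within 1000 bp of the 5′ end. *Rps6kb1* (chr11:86498871-86544805, minus strand), the S6 kinase, had 1, 1, 0 and 4 peaks. *Eif4ebp1*, the inhibitor of the cap-binding protein, had 0, 1, 0 and 3, of which 1 spanned its 5′ end (chr8:27260029-27260586, −log10 p 2.03).

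Genes whose products dampen the receptor had a peak in 0, 2, 1 and 4 of 4. Relative to the number expected from genes of similar length this was 0, 0.7505, 0.738 and 1.26. *Cbl* (chr9:44142976-44234049, minus strand), a ubiquitin ligase, had 0, 0, 1 and 4 peaks. The stimulated replicate 1 peak chr9:44148894-44149139 (−log10 p 2.94) lay in an exon, 7909 bp from the nearest of stimulated replicate 2. *Grb10*, an adaptor that binds and inhibits the receptor, had 0, 1, 0 and 5. *Grb14*, its relative, had 0, 2, 0 and 1, and its stimulated replicate 2 peak overlapped an unstimulated replicate 2 peak by 125 bp (chr2:64931423-64931547). *Ptpn1*, the phosphatase PTP1B that removes phosphate from the receptor, had 0, 0, 0 and 2. Only *Cbl* of these was hit by both stimulated lists.

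Replicates shared part of their genes and rarely the same place. The stimulated lists hit 15 and 27 genes and shared 14 of them, and the unstimulated lists hit 11 and 20 and shared 9. Of the 14 genes with a peak in both stimulated lists, only *Pik3ca* had peaks that overlapped, and of the 9 with a peak in both unstimulated lists only *Gsk3b* had. Over all protein-coding genes with a peak in both lists, 8.05% had overlapping peaks in the stimulated pair and 5.68% in the unstimulated pair. The other 13 genes of the stimulated pair had gaps from 519 bp (*Rptor*) to 24534 bp (*Pdpk1*). Between conditions, overlaps were found only for the lists numbered 2, on *Gsk3b* and *Grb14*, while the other 3 pairs of lists had none on these genes. That is 2 of 18 genes with a peak in both lists numbered 2, where 10.5% of all such protein-coding genes had overlapping peaks, and 0 of 7, 0 of 9 and 0 of 10 in the other pairs, where 4.26%, 5.99% and 6.61% had, so the counts are near the background. An overlap of at least 50% of both peaks left no shared peak in either condition, and a gap of up to 1000 bp allowed 3 genes in the stimulated pair, which were *Pik3ca*, *Rptor* and *Tsc1*.

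**Figure D4:**
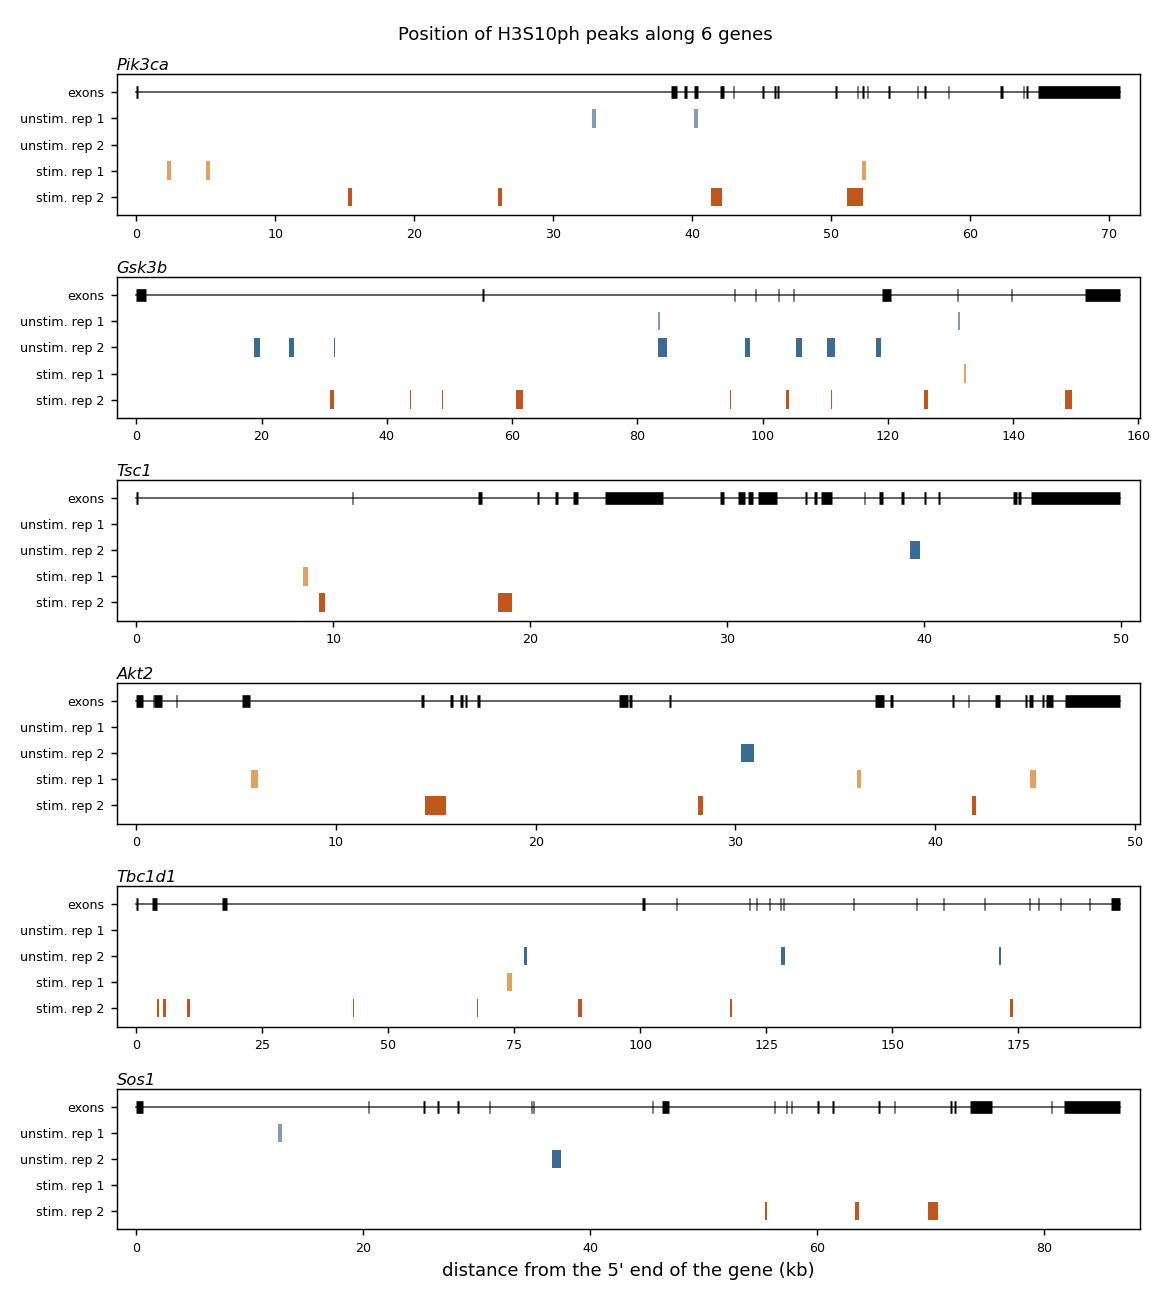
Peaks of the 4 lists (coloured bars, 1 row per list) and merged exons (black) along *Pik3ca*, *Gsk3b*, *Tsc1*, *Akt2*, *Tbc1d1* and *Sos1*, by distance from the 5′ end of the gene in kb and to scale. Bars of different rows rarely line up. Within a condition the exceptions are *Pik3ca* near 52 kb in the stimulated rows and *Gsk3b* near 83 kb in the unstimulated rows. Between conditions, *Gsk3b* has overlaps of 24 and 251 bp between unstimulated replicate 2 and stimulated replicate 2.

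Introns held 80.0%, 77.5%, 40.9% and 76.0% of the peaks, against 80.4%, 78.0%, 78.6% and 75.6% on genes of similar length, so that stimulated replicate 1 had fewer intronic peaks than its background. Peaks within 1000 bp of any annotated transcription start of the gene were 1 of 15, 3 of 40, 8 of 22 and 11 of 100, which is 6.67%, 7.5%, 36.4% and 11.0%. On genes of similar length it was 6.06%, 7.33%, 8.83% and 11.1%, and on all protein-coding genes 6.23%, 9.36%, 11.5% and 14.8%. Stimulated replicate 1 thus stood above its background and the other lists were within about a percentage point of genes of similar length. Its 8 peaks were 3 on *Akt2*, 2 on *Pdpk1* and 1 each on *Tbc1d1*, *Tsc2* and *Rheb*, and genes such as *Tsc2*, *Akt2* and *Pdpk1* have 22, 14 and 11 annotated starts spread along the gene. Without stimulated replicate 1, the difference between conditions in this share was 3.92 percentage points in place of 16.6. Counting only the 5′ end of the whole gene, 0, 1, 1 and 5 of the 33 genes had a peak within 1000 bp, against 0.392%, 2.53%, 1.41% and 9.18% of all protein-coding genes. These were *Grb10* in unstimulated replicate 2, *Rheb* in stimulated replicate 1, and *Irs2*, *Pik3r1*, *Foxo3*, *Slc2a4* and *Eif4ebp1* in stimulated replicate 2, with no gene in common. Of 40 RefSeq promoters known for 30 of the genes, only that of *Tbc1d1* printed above was under a peak. The share of all RefSeq promoters under a peak was not counted, so this number cannot be called low or high. RefSeq promoters of *Eif4ebp1*, *Insr* and *Slc2a4* were not used here.

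Peaks on the 33 genes were about as strong as the rest of their lists. The median −log10 p was 2.47, 2.20, 2.51 and 2.23, against 2.57, 2.19, 2.62 and 2.20 over whole lists, and the median fold enrichment over background was 2.21, 2.09, 2.22 and 2.104 against 2.25, 2.09, 2.27 and 2.09. The q-value was 1 for 15 of 15, 40 of 40, 20 of 22 and 99 of 100 of these peaks, where the −log10 q was 0. A −log10 p of 3 or more was reached on 1, 1, 2 and 3 genes, which were *Sos1*, then *Mtor*, then *Pik3ca* and *Akt2*, then *Irs2*, *Gsk3b* and *Sos1*. Over all protein-coding genes this held for 2.15%, 1.81%, 3.66% and 3.21%, and relative to genes of similar length the numbers were 0.862, 1.23, 0.887 and 1.51 times the expected ones. With 2.5 or more on that scale the genes hit were 4, 6, 9 and 10, and in lists cut to their best 9094 peaks they were 11, 9, 13 and 15, with 15, 11, 16 and 25 peaks (exact permutation p = 0.333 for each of these). Relative to genes of similar length, the genes hit at 2.5 or more were 0.737, 1.12, 1.24 and 1.17 times the expected number. In the lists of equal length they were 1.40, 1.06, 1.52 and 1.45 times, and the peaks 1.29, 0.973, 1.38 and 1.67 times. At equal length both stimulated lists were thus above both unstimulated ones, by as little as 1 peak in the counts. Peaks on these genes had a median GC content of 44.0%, 46.7%, 46.0% and 46.7%, against 38.7%, 44.9%, 45.7% and 45.4% for all gene-body peaks.

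Beyond the 33 genes, 89 other genes of the insulin, mTOR and AMPK pathways were counted in the same way, of which 22, 33, 21 and 62 had a peak. This was 1.46, 0.878, 1.11 and 1.27 times the number expected from genes of similar length. Their peaks were 1.23, 0.839, 1.07 and 1.43 times as many as on genes of similar length. A peak was in both stimulated lists for 19 of the 89, in both unstimulated lists for 9 and in no list for 20. Over all protein-coding genes these shares were 12.3%, 7.94% and 44.2%. Counts of these patterns on genes of the same length as the 89 were not made. The 4 hit in each stimulated sample and in no unstimulated one were *Foxo6*, another Foxo factor, *Prkaa1*, a catalytic subunit of AMPK, *Prkci*, an atypical protein kinase C, and *Trip10*, an adaptor of insulin-stimulated glucose uptake. Of all protein-coding genes 2.73% had this pattern. Over the 89 genes stimulated replicate 1 lay below unstimulated replicate 1 in the ratio of peaks, so the order seen in the 33 genes was not seen there.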

How the data were processed

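H3S10ph was mapped in 4 samples of mouse gastrocnemius muscle, 2 stimulated and 2 contralateral unstimulated, grouped by their labels. According to the methods, the authors mapped reads to mm10, removed reads with several mapping places, equalised read numbers between replicates by down-sampling, and called broad peaks with MACS2 2.1.1 (version also in the submitters' processing notes) against input DNA in each sample, with a p cutoff of 0.001. Only 12.9%, 2.93%, 17.7% and 3.22% of the deposited peaks reach that cutoff (lists in the order of the report), and what threshold the others passed is not given in the sources used here. The deposited lists give per peak a fold enrichment (a ratio over background made by the authors' peak caller), the −log10 p and the −log10 q as the authors' caller wrote them, and a score that the authors' caller derived from q and that was not used here. They hold no reads, so depth is unknown, and 2 samples per condition limit the precision.

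Peaks were intersected with the protein-coding genes of GENCODE M21 in Python 3.11.15 (numpy 2.4.6, scipy 1.17.1, matplotlib 3.10.9). A promoter was 1000 bp to either side of any annotated start, and a peak was classed as promoter before exon before intron. Genes of similar length were the 200 protein-coding genes nearest in length to each gene, outside the list. Conditions were compared by exact permutation over samples, two-sided, and the counting was tested on simulated data. Sequences came from GRCm38 (mm10), where 0 of 93298 peaks passed a chromosome end, and from RefSeq promoters of GRCm38.p6, matched by symbol for 30 of the 33 genes. All genes are given by their presence in the 4 lists, and those hit in both replicates of a condition in detail. Genes and lists were chosen with earlier results of these data known. Alternatives were stricter thresholds, lists of equal length, other overlaps, gene bodies extended by 5000 bp, 50 or 1000 genes of similar length, autosomes, a promoter of 5000 bp, class by midpoint, each replicate left out, a replicate block and, added later, the 5′ end as the only promoter. Single values of some marker genes of other cells are not reported here.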

Additional observations from a re-analysis of the deposited data

How the results depend on the processing

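With 2 samples per condition no difference could pass 0.05, and the lists give no reads, so a peak that missed its threshold cannot be weighed. Leaving out each sample in turn moved the stimulated minus unstimulated difference in genes hit between −0.5 and 11.5, in peaks between −5.5 and 72.5 and in covered share between −0.177 and 1.58 percentage points, in each case from without stimulated replicate 2 to without stimulated replicate 1. The difference in genes hit relative to genes of similar length ranged from −0.0417 without unstimulated replicate 2, through −0.0190 without stimulated replicate 1, to 0.291 without unstimulated replicate 1. Those of peaks (0.244 to 0.555) and of covered share (0.334 to 0.428) relative to genes of similar length, and of the share of peaks at promoters (3.92 to 29.3 percentage points), kept their sign. Genes with peaks that overlap between stimulated replicates, 1 as reported, were 0 at a reciprocal overlap of 50% and 3 with a gap of up to 1000 bp. Between unstimulated replicates, 1 became 0 at 50%. The other 49 comparisons of a value with an alternative kept the direction or, for shared peaks, the count. Their p-values could not change side of 0.05, since none could pass it, and the replicate-block values among them could not differ. With fewer peaks counted the raw differences shrank. At a −log10 p of 3 or more they were 1.5 genes, 2 peaks and 0.0466 percentage points of covered share, at 2.5 or more 4.5 genes, 9.5 peaks and 0.160 points, and in lists of equal length 4 genes, 7.5 peaks and 0.120 points, in place of 5.5, 33.5 and 0.70. The differences relative to genes of similar length were 0.28 for genes, 0.54 for peaks and 0.48 for covered share at 2.5 or more, 0.15, 0.30 and 0.76 at 3 or more, and 0.26, 0.39 and 0.29 in lists of equal length, in place of 0.12, 0.40 and 0.38. The measures relative to genes of similar length for peaks and for covered share, and the 5′ end as the only promoter, were chosen after seeing the data.

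Gene by gene, samples with the same replicate number did not deviate together (correlation −0.0376 over 21951 genes), so the numbers are not shown to pair the pools. In list length, however, they went together. The lists numbered 1 were short in both conditions (9094 and 10901 peaks) and those numbered 2 were long (32740 and 40683). What this split comes from was not tested. A replicate block cannot change a difference of means. The differences were thus the same 5.5 genes, 33.5 peaks and 0.70 percentage points. In the ratios of genes, peaks and covered share they were 0.12, 0.40 and 0.38. Each had an exact sign-flip p of 0.5, the smallest that 2 pairs allow.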
